A study of Mus musculus with 8 samples.

Results

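The genes described here are 63 of the 2000 genes of a pooled single-cell table and were chosen by name alone. They are the mitotic cyclins and kinases, the spindle checkpoint and ubiquitin-ligase genes, the kinetochore, kinesin, spindle, condensin and cytokinesis genes, the D-type cyclins and the Cdkn genes. The cells came from tumours of Hepa1-6, an established mouse hepatoma line, profiled by droplet-based 3′ RNA sequencing. The labels give 4 groups: WT cells with intraperitoneal PBS, WT cells with an antibody against PD-1 (a checkpoint receptor of T cells), Soat1-edited cells with PBS, and Soat1-edited cells with the antibody. The 8 entries are a cDNA and an oligo library for each group, and the labels do not say how many animals they hold. The titles call the editing a knockout and the genotype field a knockdown, and strain, age and times are not given in the sources used here. The 53528 cells fall into 6 sets by the last number of their names, which no label ties to a group. The table is therefore read as 1 sample, and the labels do not say whether the sets are samples. No difference below has a replicate check, and neither the editing nor the antibody could be examined.

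Dividing cells make these transcripts in a wave. Cyclin A2 and the B-type cyclins switch on the kinase Cdk1, which drives entry into mitosis. Aurora and Polo kinases build the spindle, and the checkpoint holds back the anaphase-promoting complex until every chromosome is attached. Cdc20 and Ube2c then let that complex have cyclin B destroyed. D-type cyclins act earlier, in G1, and link growth signals to the cycle, while Cdkn1a (p21), Cdkn1c (p57) and Cdkn2b (p15) inhibit cyclin-dependent kinases. Many late genes carry a cell cycle homology region, spelled TTTGAA or TTTAAA, near the start site, often with CCAAT boxes, and are held down in resting cells by the DREAM complex. E2F sites, searched here as TTCCCGC or TTGGCGC, are typical of genes of the earlier S phase.

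The promoters of the 63 genes were read for these spellings. RefSeq windows of 300 bases (GRCm38.p6, 250 before and 50 after each start) were at hand for 54 of the 63 genes, as 59 windows. On either strand, TTTGAA was in 67.8% of them against 17.9% of all 32851 windows of the reference. CCAAT was in 66.1% against 37.4%. TTTAAA, which reads the same on both strands, was in 16.9% against 13.2%, and an E2F spelling in 20.3% against 6.81%. A list of 25 S-phase genes of the table had TTTGAA in 4.35% and an E2F spelling in 60.9% of its 23 windows. Its shares of CCAAT and TTTAAA, 65.2% and 21.7%, were close to or above those of the 63 genes. The 150 bases before the start are printed for 6 genes that the results return to. Cdk1, Cdc20 and Ube2c are genes of mitotic entry and exit whose levels in T and hepatoma cells were less than 2-fold apart, Top2a and Kif15 were higher in T cells, and Cdkn1a has none of the spellings in either of its windows. Capitals mark a CCAAT box, which reads ATTGG where it lies on the other strand. They also mark TTTGAA, which reads TTCAAA where it lies on the other strand.
Cdk1, chr10:69352913-69353062, minus strand: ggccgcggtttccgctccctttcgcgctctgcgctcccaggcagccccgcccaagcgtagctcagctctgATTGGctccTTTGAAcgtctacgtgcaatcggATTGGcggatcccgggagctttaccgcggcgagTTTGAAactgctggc
Cdc20, chr4:118437344-118437493, minus strand: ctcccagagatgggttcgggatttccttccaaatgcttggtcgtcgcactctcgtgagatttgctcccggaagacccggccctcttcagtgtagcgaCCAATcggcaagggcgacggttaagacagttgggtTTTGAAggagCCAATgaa
Ube2c, chr2:164769779-164769928, plus strand: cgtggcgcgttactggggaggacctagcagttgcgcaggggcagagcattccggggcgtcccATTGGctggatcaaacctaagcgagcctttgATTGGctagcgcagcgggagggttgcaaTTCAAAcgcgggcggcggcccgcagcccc
Top2a, chr11:99024190-99024339, minus strand: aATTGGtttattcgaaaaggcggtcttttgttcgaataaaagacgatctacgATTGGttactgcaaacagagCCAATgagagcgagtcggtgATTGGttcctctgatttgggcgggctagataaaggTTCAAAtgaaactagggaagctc
Kif15, chr9:122950931-122951080, plus strand: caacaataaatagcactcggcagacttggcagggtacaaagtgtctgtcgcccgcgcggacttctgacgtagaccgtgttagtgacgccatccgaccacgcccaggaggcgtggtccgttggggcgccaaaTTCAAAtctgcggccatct
Cdkn1a, chr17:29093619-29093768, plus strand: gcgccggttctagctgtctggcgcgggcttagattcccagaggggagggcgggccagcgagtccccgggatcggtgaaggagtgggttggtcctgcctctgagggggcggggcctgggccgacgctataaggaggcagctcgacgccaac
Cdk1, Cdc20, Ube2c and Top2a pair CCAAT boxes with TTTGAA, whereas Kif15 has TTTGAA and no CCAAT box in its whole window. The printed Kif15 stretch also holds the E2F spelling TTGGCGC on the other strand, left in small letters. A match describes the letters only.

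Cells were gated by marker genes, none of which is among the 63. The gates took 26616 hepatoma cells (49.7% of all), 12524 T cells (23.4%), 489 NK cells (0.913%), 5922 myeloid cells (11.1%) and 814 fibroblasts (1.52%). UMIs, that is counted molecules, could be recovered for set 1 alone, where the classes held 6173 hepatoma, 1267 T, 41 NK, 845 myeloid and 77 fibroblast cells after doublet removal. Median depth was 17324 UMIs in hepatoma, 4725 in T, 2558 in NK, 2743 in myeloid and 6826 in fibroblast cells. Levels are given as CPM, a gene's UMIs scaled to the UMI total of the class. Of 23 hepatoma markers such as Afp and Alb, 22 had UMIs in T, 16 in NK, 22 in myeloid and 21 in fibroblast cells. Their summed level was 22820 CPM in hepatoma, 2599 in T, 3330 in NK, 4537 in myeloid and 4982 in fibroblast cells. In the hepatoma gate itself H19 was nearly absent, at 0.0636 CPM. The part of such tumour cell RNA in the values below was not tested. Intervals cover the counting error alone, at the 95% level.

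In set 1, T cells held most of these genes at a higher share of their RNA than the hepatoma cells did. Over the 5 classes, the highest CPM was in T cells for 48 of the 63 genes, in hepatoma for 8, in fibroblasts for 4, in NK cells for 2 and in myeloid cells for 1. Some of these places were narrow. Cenpl was at 44.2 CPM in NK cells, from 6 UMIs, and 43.3 in T cells. Kif20a was at 43.1 CPM in fibroblasts and 42.4 in T cells. Cdkn1a had a myeloid-to-hepatoma ratio of 1.04, with an interval (0.984 to 1.10) that includes 1. In T cells 27 of 63 were more than 2-fold above hepatoma, where 21.3% of all 2000 genes were. A further 5 of 63 were more than 2-fold below, against 33.1% of all genes. The median log2 ratio was 0.84 over the 63 genes and -0.16 over all genes. T cells were above hepatoma for 54 of the 63 genes and for 816 of all 2000. On the mean deposited scale the median difference over the 63 genes was near 0 in all 6 sets and below 0 in sets 2 and 5, as given with the sets below. Per cell the order was the reverse for the 31 core mitosis genes, with 48.7 UMIs in a hepatoma cell and 25.2 in a T cell. In a class total, fewer cycling cells and less RNA of a gene per cycling cell cannot be told apart.

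**Figure D1:**
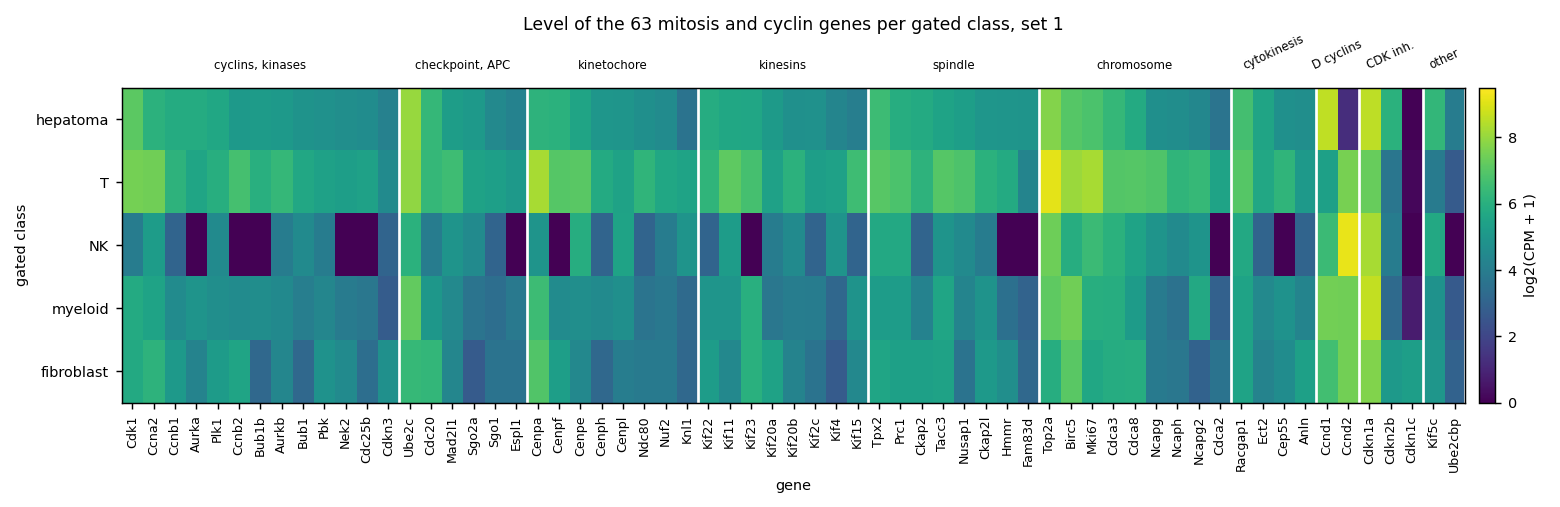
Level of the 63 genes in the 5 gated classes of set 1, as log2 of CPM plus 1 in colour (dark for low), with genes as columns grouped by role and classes as rows. Top2a is at 554 CPM in T and 214 in hepatoma cells, while Ccnd1 runs the other way with 41.2 and 380.5 CPM.

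Of 13 cyclin and kinase genes of mitosis, 12 were above hepatoma in T cells, 3 of them by more than 2-fold, a share close to that of all genes. Cdk1, the kinase of mitotic entry, was at 137 CPM in hepatoma, 181 in T, 14.7 in NK, 54.8 in myeloid and 54.3 in fibroblast cells. Its T-to-hepatoma ratio was 1.32 (1.25 to 1.39), with the 95% interval in parentheses here and below. Ccna2, the cyclin of S phase and early mitosis, was at 68.6 CPM in hepatoma, 172 in T, 36.8 in NK, 44.8 in myeloid and 69.6 in fibroblast cells. Its T-to-hepatoma ratio was 2.5 (2.36 to 2.65). The B cyclins, the main mitotic partners of Cdk1, differed in the size of this ratio. Ccnb2 was at 34.4 CPM in hepatoma and 102.3 in T cells, a ratio of 2.97 (2.76 to 3.202). Ccnb1 was at 56.4 CPM in hepatoma and 68.7 in T cells, a ratio of 1.22 (1.12 to 1.33). The Aurora kinases differed in direction. Aurkb, of the chromosomal passenger complex, was at 33.5 CPM in hepatoma and 79 in T cells, a ratio of 2.36 (2.17 to 2.56). Aurka, of the spindle poles, was at 56.4 CPM in hepatoma and 47.4 in T cells, a ratio of 0.84 (0.756 to 0.931).

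Of 8 checkpoint and anaphase-promoting-complex genes, 6 were above hepatoma in T cells and 1 by more than 2-fold, a smaller share than that of all genes. Ube2c, the ubiquitin-conjugating enzyme of that complex, was at 263 CPM in hepatoma, 244 in T, 66.3 in NK, 149 in myeloid and 82.1 in fibroblast cells. Its T-to-hepatoma ratio was 0.928 (0.887 to 0.972), and a gate score of at least 0.3 turned the log2 ratio from -0.11 to 0.15. Cdc20, the activator of the complex, was at 80.3 CPM in hepatoma, 78.7 in T, 14.7 in NK, 31.2 in myeloid and 76.5 in fibroblast cells. Its T-to-hepatoma ratio of 0.98 (0.904 to 1.06) had an interval that includes 1. Mad2l1, the checkpoint protein that holds Cdc20 back, was at 37.7 CPM in hepatoma and 92.7 in T cells, a ratio of 2.46 (2.27 to 2.65).

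All 8 kinetochore and centromere genes were above hepatoma in T cells, 5 by more than 2-fold, where 21.3% of all genes were. Cenpa, the histone H3 variant of centromeres, was at 69 CPM in hepatoma, 307 in T, 29.5 in NK, 89.9 in myeloid and 119.6 in fibroblast cells. Its T-to-hepatoma ratio was 4.46 (4.26 to 4.66). Knl1, the outer-kinetochore scaffold, was at 11.2 CPM in hepatoma and 44.3 in T cells, a ratio of 3.95 (3.52 to 4.43). Ndc80 and Nuf2 are partners in the complex that binds microtubules. Ndc80 was at 25.8 CPM in hepatoma and 73.2 in T cells, a ratio of 2.83 (2.59 to 3.09). Nuf2 was at 23 CPM in hepatoma and 49.4 in T cells, a ratio of 2.14 (1.93 to 2.38). Cenpe is a motor of the kinetochore and Cenpf a large protein of its outer layer. Cenpe was at 46.3 CPM in hepatoma and 135 in T cells, a ratio of 2.91 (2.73 to 3.1). Cenpf was at 65.6 CPM in hepatoma and 125 in T cells, a ratio of 1.91 (1.78 to 2.03).

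The 8 mitotic kinesins, motors of the spindle, were all above hepatoma in T cells, 5 by more than 2-fold (21.3% of all genes). Kif15, which helps keep the spindle bipolar, was at 15.8 CPM in hepatoma, 91.5 in T, 7.37 in NK, 28.4 in myeloid and 20.9 in fibroblast cells. Its T-to-hepatoma ratio of 5.81 (5.34 to 6.32) was the highest of the 63 genes after that of Ccnd2. Kif11, the main motor that pushes the poles apart, was at 49.96 CPM in hepatoma and 140.5 in T cells, a ratio of 2.81 (2.64 to 2.995). Kif20b was at 26.2 CPM in hepatoma and 67.2 in T cells, a ratio of 2.57 (2.34 to 2.81). Kif4 and Kif22 are motors bound to chromosome arms, and Kif23 is the motor of the centralspindlin complex. Kif4 had a ratio of 2.18 (1.95 to 2.45) and Kif23 a ratio of 2.11 (1.96 to 2.27). Kif22 was at 58.3 CPM in hepatoma and 73.9 in T cells, a ratio of 1.27 (1.16 to 1.38).

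Of 8 spindle-assembly genes, 7 were above hepatoma in T cells and 3 by more than 2-fold (21.3% of all genes). Nusap1, which bundles spindle microtubules, was at 38.7 CPM in hepatoma and 116 in T cells, a ratio of 2.98 (2.78 to 3.197). Tacc3, which stabilises spindle fibres, was at 45 CPM in hepatoma and 126 in T cells, a ratio of 2.81 (2.63 to 3.001). Ckap2l had a ratio of 2.14 (1.96 to 2.34). The genes with the most UMIs of this group had smaller ratios. Tpx2, the activator of Aurora A, was at 91.4 CPM in hepatoma and 128 in T cells, a ratio of 1.41 (1.32 to 1.496). Prc1, the bundler of the central spindle, had a ratio of 1.86 (1.74 to 1.996) and Ckap2 a ratio of 1.25 (1.14 to 1.36). Fam83d, which helps place the spindle, was the gene below hepatoma, at 28.9 CPM in hepatoma and 18.6 in T cells, a ratio of 0.646 (0.545 to 0.759).

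In the chromosome group 9 of 9 genes were above hepatoma and 8 by more than 2-fold (21.3% of all genes). Top2a, the topoisomerase that untangles sister chromatids, was at 214 CPM in hepatoma, 554 in T, 169 in NK, 141 in myeloid and 59.8 in fibroblast cells. Mki67, the Ki-67 protein that coats mitotic chromosomes, was at 112 CPM in hepatoma, 305 in T, 88.4 in NK, 60.6 in myeloid and 50.1 in fibroblast cells. Their T-to-hepatoma ratios were 2.59 (2.51 to 2.67) for Top2a and 2.71 (2.6 to 2.83) for Mki67. Birc5 (survivin) and Cdca8 (borealin) belong to the passenger complex with Aurkb. Birc5 was at 126 CPM in hepatoma and 265 in T cells, a ratio of 2.1 (2.01 to 2.2). Cdca8 was at 55 CPM in hepatoma and 128 in T cells, a ratio of 2.33 (2.19 to 2.49). The condensin subunits, which compact chromosomes, had higher ratios than these. Ncapg was at 25.9 CPM in hepatoma and 116 in T cells, a ratio of 4.5 (4.18 to 4.83). Ncapg2 had a ratio of 4.01 (3.68 to 4.37) and Ncaph a ratio of 2.998 (2.74 to 3.27). Cdca2, which brings a phosphatase to chromosomes, had a ratio of 3.801 (3.38 to 4.26).

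All 7 cytokinesis genes had log2 ratios above 0 in T cells, with a median of 0.40, and 2 were more than 2-fold above. Over all 2000 genes 816 were above 0, with a median of -0.16, and 21.3% were more than 2-fold above. Racgap1, of the centralspindlin complex, was at 99.1 CPM in hepatoma and 126 in T cells, a ratio of 1.27 (1.19 to 1.35). Ect2, the exchange factor that sets the cleavage furrow, was at 46 CPM in hepatoma and 51 in T cells, a ratio of 1.11 with an interval (0.9996 to 1.22) that includes 1. Cep55, of the abscission machinery, was at 26.2 CPM in hepatoma and 73.8 in T cells, a ratio of 2.82 (2.58 to 3.08). Among fixed lists outside the 63 genes, 18 of 25 S-phase genes were more than 2-fold above hepatoma and 0 below, with a median log2 ratio of 1.33. Of 34 other G2 and M genes, 13 were above and 2 below, with a median of 0.85. The shares over all genes, for both lists, were 21.3% above and 33.1% below.

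**Figure D2:**
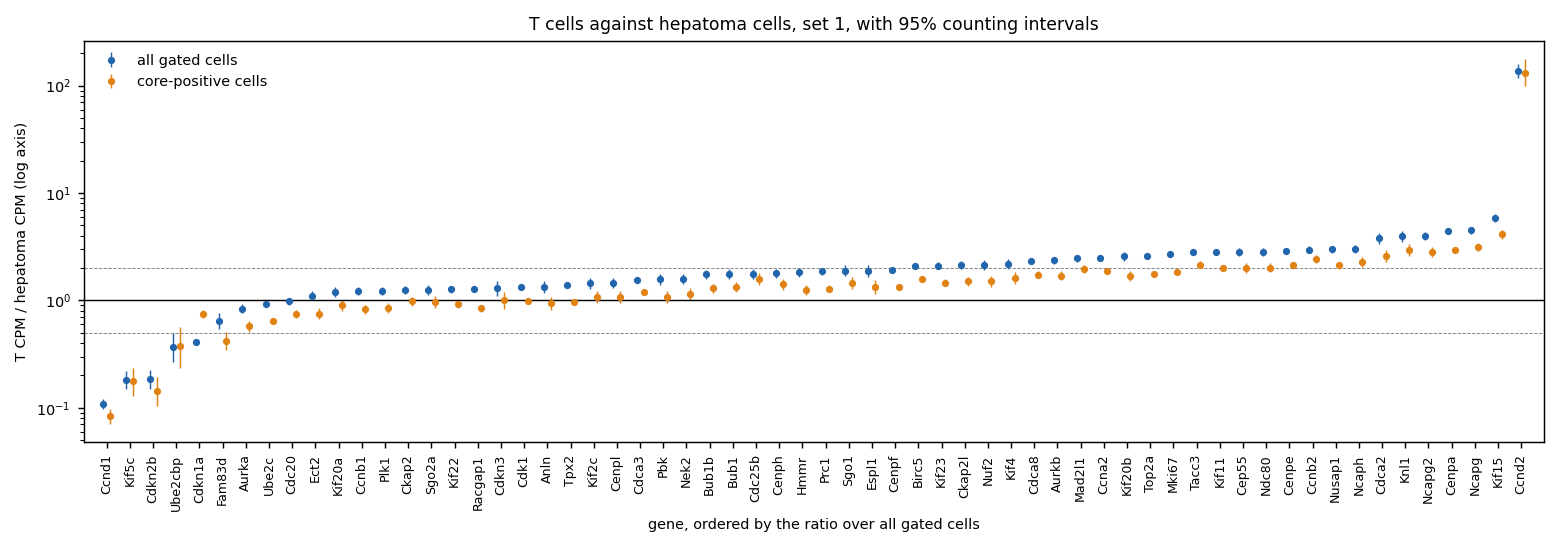
T-to-hepatoma ratio of CPM in set 1 (log axis) for each gene but Cdkn1c over all gated cells and over core-positive cells alone, with 95% counting intervals. Over all gated cells Ccnd2 stands at 136, Kif15 at 5.81 and Ccnd1 at 0.108.

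The 2 D-type cyclins in the table, of 3 in the fixed list, divided the classes. Ccnd1 was at 380.5 (377 to 384) CPM in hepatoma, 41.2 (36.9 to 45.9) in T, 88.4 (45.7 to 154) in NK, 178 (163 to 193) in myeloid and 98.8 (77.1 to 125) in fibroblast cells. Ccnd2 was at 1.38 (1.19 to 1.59) CPM in hepatoma, 187 (178 to 197) in T, 582 (461 to 725) in NK, 173 (159 to 189) in myeloid and 179.5 (149.8 to 213) in fibroblast cells. Ccnd1 was highest in hepatoma and Ccnd2 lowest there, with intervals that meet none of the other classes. Parts of the myeloid class came closer to hepatoma for Ccnd1. Dendritic cells held 304.6 CPM, a ratio to hepatoma of 0.801 (0.667 to 0.953), and neutrophils 276.9 CPM, a ratio of 0.728 (0.582 to 0.899). NK cells stood highest for Ccnd2, and the T, myeloid and fibroblast intervals overlapped. The T-to-hepatoma ratio was 0.108 (0.097 to 0.121) for Ccnd1 and 136 (117 to 158) for Ccnd2.

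The same order of T and hepatoma cells was found in each of the 6 sets. Mean deposited values of Ccnd1 in hepatoma were 1.203, 1.201, 1.23, 1.11, 1.25 and 1.23 by set, and in T cells 0.213, 0.19, 0.163, 0.163, 0.191 and 0.2. Those of Ccnd2 were 0.012 to 0.021 in hepatoma, 0.476 to 0.669 in T and 0.63 to 1.28 in NK cells. The hepatoma and T ranges did not overlap for either gene. Hepatoma markers over 50 CPM had a median of 11.6% of their hepatoma level in T cells and a range of 8.39% to 14.9%, which holds the Ccnd1 ratio. The part of tumour cell RNA in that Ccnd1 value was not tested.

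Ccnd1 and Ccnd2 differed within the myeloid class, and Ccnd2 also among T cells. Dendritic cells held 506 (440.1 to 579) CPM of Ccnd2 and macrophages and monocytes 124 (110.4 to 139), a ratio of 4.08 (3.4 to 4.88). In that comparison 7 of 63 genes were more than 2-fold higher in dendritic cells, against 11.7% of all genes, and 4 lower, against 21.7%. Both Ccnd1 and Ccnd2 were among those higher. T cells were divided by their UMIs of Cd4, Cd8a and Cd8b1 after the data were seen, into 1067 CD8 and 84 CD4 cells. Ccnd2 was at 464 (404 to 529.7) CPM in CD4 and 162 (152 to 171) in CD8 cells. Ccnd2 and Cdkn1a were the 2 of 63 genes more than 2-fold lower in CD8 cells, where 12.9% of all genes were, and 3 were higher, where 13.1% were. All 31 core mitosis genes had log2 ratios above 0 for CD8 over CD4, with a median of 0.57, and 19 had intervals above 1. Over all 2000 genes 1119 were above 0 and 154 had intervals above 1, with a median of 0.18. In CD4 cells 11 of 63 genes were more than 2-fold above hepatoma (21.7% of all genes) and 5 below (35.6%), with a median log2 ratio of 0.39.

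The 3 CDK inhibitors in the table, of 7 in the fixed list, each had a pattern of their own. Cdkn1a was at 377 (374 to 379.9) CPM in hepatoma, 156 (147 to 164) in T, 302 (217 to 409.8) in NK, 393 (371 to 415) in myeloid and 209 (177 to 245) in fibroblast cells. Neutrophils, a subset of the myeloid class, held 634 (549 to 729) CPM, above the interval of each of the 5 classes. Cdkn2b was at 66.6 (65.2 to 67.9) CPM in hepatoma, 12.3 (10.04 to 15.01) in T and 33.4 (21.4 to 49.7) in fibroblast cells. Cdkn1c was found mainly in fibroblasts, at 39 (25.9 to 56.3) CPM from 28 UMIs, against 7 UMIs in all hepatoma cells, 1 in T and 2 in myeloid cells. Its fibroblast means on the deposited scale were 0.141, 0.426, 0.383, 0.283, 0.349 and 0.383 by set, and no hepatoma mean was above 0.001. Cdkn3, a phosphatase of Cdk1 that the name rule took in, was at 17.1 CPM in hepatoma and 22.2 in T cells. A pair of genes caught by the name rule have no role in mitosis assigned here. Kif5c, a transport kinesin, was at 78.2 CPM in hepatoma and 14.3 in T cells, and Ube2cbp at 15.03 CPM in hepatoma and 5.55 in T cells.

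**Figure D3:**
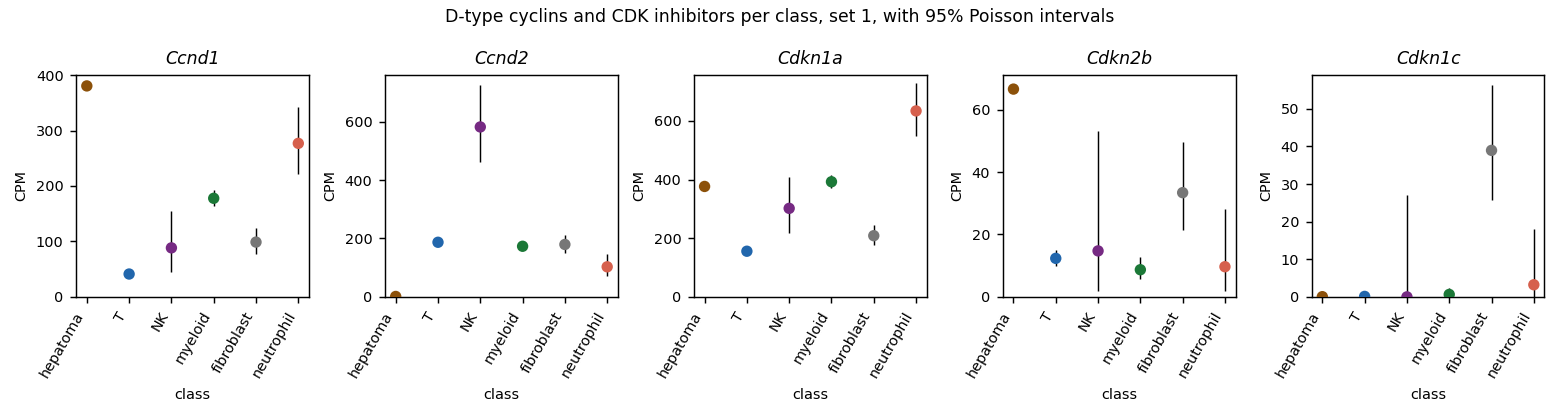
CPM of the D-type cyclins and CDK inhibitors in the classes of set 1, and in neutrophils, as points with 95% Poisson intervals as bars and an axis from 0 for each gene. Ccnd2 is at 1.38 CPM in hepatoma and 582 in NK cells, and Cdkn1c reaches 39 CPM in fibroblasts.

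NK, myeloid and fibroblast cells held most mitotic genes below hepatoma. Against hepatoma, NK cells had 2 of 63 genes more than 2-fold higher (17.2% of all genes) and 35 lower (41.4%), with a median log2 ratio of -1.11 beside -0.66 over all genes. Of these NK values, 14 rest on no UMI among 41 cells, which allows up to 22.1 CPM. With these genes at that limit the median was -0.62 and 25 genes were lower. Myeloid cells had 2 higher (24.3%) and 22 lower (28.3%), with a median of -0.82 beside -0.13. Fibroblasts had 2 higher (26.6%) and 22 lower (27%), with a median of -0.75 beside -0.22. Neutrophils, which are non-dividing cells, had 3 higher (23.9%) and 17 lower (22.2%), with a median of -0.69 beside -0.26. The median over the 63 genes was below that over all genes in myeloid, fibroblast and neutrophil cells, and in NK cells the place of the list was not clear at this depth. The 31 core genes had a median of 46.8% of their hepatoma level in NK, 56% in myeloid, 59.2% in fibroblast and 58.2% in neutrophil cells.

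Cells were then read singly at equal depth. Each was thinned to 1000 drawn UMIs and called core-positive with at least 2 UMIs of the 31 core genes. The share, with its exact binomial interval, was 31.5% (30.3 to 32.6) of hepatoma and 41.9% (39.2 to 44.7) of T cells. It was 17.1% (7.15 to 32.1) of NK, 23.2% (20.4 to 26.2) of myeloid and 24.7% (15.6 to 35.8) of fibroblast cells. Neutrophils, taken as the background, gave 17.9% (11.5 to 26.1) at a median depth of 1386 UMIs before thinning, with hepatoma markers at a summed 7890 CPM. The NK, myeloid and fibroblast shares lay inside that interval, and the hepatoma and T shares above it. Thinned to 3000 UMIs, the 27 neutrophils deep enough gave 66.7% (46 to 83.5), which holds the hepatoma and T shares of 57.2% and 74.1%, so the place of both above the background rests on the shallower draw. Without thinning, the shares were 93.6% of hepatoma, 72.3% of T, 48.8% of NK, 54.7% of myeloid, 70.1% of fibroblast and 41% of neutrophil cells. CD8 T cells gave 44.2% (41.2 to 47.3) and CD4 T cells 26.2% (17.2 to 36.9) at 1000 UMIs. Of T cells 8.998% and of hepatoma cells 2.79% had 10 or more core UMIs among 1000. All these shares are from set 1. By another rule for core cells on the deposited scale, given below, set 1 had the highest T cell share of the 6 sets. By that rule hepatoma had a higher share than T cells in sets 2, 3 and 5.

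**Figure D4:**
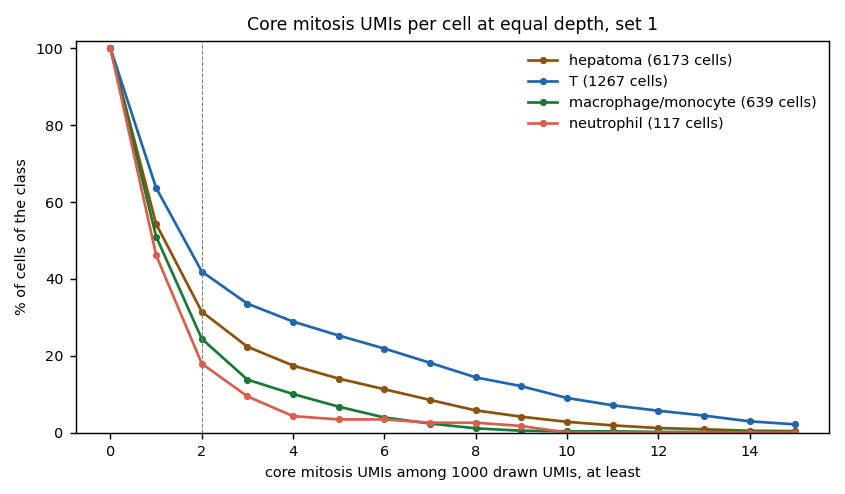
Percent of cells (vertical axis) with at least a given number of core mitosis UMIs among 1000 drawn UMIs (horizontal axis) in 4 classes of set 1, a line for each class. At the 2 UMIs that define a core-positive cell, T cells stand at 41.9%, hepatoma cells at 31.5% and neutrophils at 17.9%.

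Cells divided this way were compared on the UMIs that were not drawn. The 31 core genes chose the cells, so the counts over the 63 genes are a description. In hepatoma 56 of 63 genes were more than 2-fold higher in core-positive cells (7.25% of all genes) and 1 lower (3.65%). In T cells 56 were higher (7.35%) and 0 lower (3.2%). In myeloid cells 54 were higher (14%) and 1 lower (12.4%). In hepatoma and T cells the 7 genes not more than 2-fold higher were the same: Ccnd1, Ccnd2, Cdkn1a, Cdkn1c, Cdkn2b, Kif5c and Ube2cbp. Cdkn3 was higher, at ratios of 4.58 (4.18 to 5.03) in hepatoma and 5.53 (3.33 to 9.76) in T cells. Core-positive cells were also deeper, with medians of 20322 against 16324 UMIs in hepatoma and 7034 against 3577.5 in T cells. The part of depth was not tested beyond the limit to cells of 3000 to 10000 UMIs.

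Cdkn1a, the p21 inhibitor, was lower in core-positive hepatoma cells, at 206 CPM in core-positive and 473 in core-negative cells. That ratio was 0.436 (0.426 to 0.445). In T cells Cdkn1a was at 154 CPM in core-positive and 169 in core-negative cells, a ratio of 0.913 (0.808 to 1.03). Ccnd1 in hepatoma was at 463 CPM in core-positive and 334 in core-negative cells, a ratio of 1.39 (1.36 to 1.41). Cdkn1a and Ccnd1 thus stood on opposite sides of 1 in hepatoma. The inhibitor Cdkn2b, at a ratio of 1.163 (1.115 to 1.213) in hepatoma, stood on the same side as Ccnd1. Ccnd2 in T cells was at 146 CPM in core-positive and 244 in core-negative cells, a ratio of 0.5999 (0.536 to 0.671). In CD8 T cells alone its ratio was 0.661 (0.582 to 0.752).

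The same division was made on the deposited scale in all 6 sets, as an addition after the data were seen. A cell was called core-high with at least 25% of the core genes above a value of 0.5. Cdkn1a in core-high hepatoma cells had set means of 0.859, 0.909, 0.94, 1.13, 0.963 and 1.09. In the other hepatoma cells the means were 1.41, 1.47, 1.46, 1.51, 1.51 and 1.46. The ranges did not overlap, with core-high cells lower. In T cells the order was the reverse, with 0.58 to 0.639 in core-high and 0.335 to 0.451 in other cells. On CPM in set 1 the T cell ratio above had an interval that includes 1. The 2 divisions differ in scale, in the rule for core cells and in the use of a common depth, and the part of each was not tested. Of the 32 genes outside the core, 28 were higher in core-high hepatoma cells in all 6 sets (28.1% of all genes) and 3 lower (18.3%), namely Cdkn1a, Ccnd2 and Kif5c. In T cells 28 were higher (28.5%) and 1 lower (6.75%), namely Ccnd2. In hepatoma Ccnd2 was near 0, with set means of 0.008 to 0.011 in core-high and 0.013 to 0.023 in other cells. Its ratio between core-positive and core-negative hepatoma cells of set 1 was 0.752 (0.538 to 1.04), with an interval that includes 1.

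The T cell excess was smaller among core-positive cells of both classes, a comparison also added after the data were seen. Of 63 genes, 13 were more than 2-fold higher in the 531 core-positive T cells than in the 1942 core-positive hepatoma cells (19.2% of all genes) and 5 lower (32.2%). The median log2 ratio was 0.42, beside -0.22 over all genes. Kif15 was at 138 CPM in T and 33.4 in hepatoma cells, a ratio of 4.13 (3.75 to 4.54). Ncapg had a ratio of 3.15 (2.9 to 3.41), Cenpa of 2.97 (2.82 to 3.13) and Knl1 of 2.94 (2.58 to 3.33). Each of these 4 was also more than 2-fold above hepatoma over all gated cells, which include the core-positive cells, so the 2 comparisons are not independent. Of the 8 checkpoint and anaphase-promoting-complex genes, 5 had intervals above 1 and 2 below 1, with a median log2 ratio of 0.39. Over all 2000 genes, 513 had intervals above 1 and 768 below 1. The checkpoint and complex genes below 1 were Ube2c at 0.637 (0.605 to 0.67) and Cdc20 at 0.751 (0.686 to 0.82). Ccnb1 was at 0.832 (0.754 to 0.916), Aurka at 0.575 (0.511 to 0.645) and Fam83d at 0.417 (0.342 to 0.504).

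Across the 6 sets, 21 of 63 genes had a higher mean deposited value in T than in hepatoma cells every time (20.5% of all genes) and 15 a lower value every time (51%). The median difference over the 63 genes was 0.029, -0.03, 0.032, 0.045, -0.03 and 0.035 by set, and over the 31 core genes 0.064, -0.033, 0.057, 0.065, -0.031 and 0.05, so both were below 0 in sets 2 and 5. Over all genes it was between -0.005 and -0.003. Genes higher in all sets included Top2a, Mki67, Cenpa, Cenpe, Kif11, Kif15, Knl1, Ndc80, Nusap1, Tacc3, Aurkb, Ccnb2, Mad2l1, Ncapg, Ncapg2 and Ncaph. Top2a in T cells had means of 1.002, 0.765, 0.896, 0.756, 0.78 and 0.849 by set, and in hepatoma cells 0.637, 0.679, 0.638, 0.505, 0.706 and 0.612. Every T mean of Top2a was above every hepatoma mean. Cenpa had means of 0.668 to 0.824 in T and 0.256 to 0.345 in hepatoma cells, again without overlap. Ube2c, Cdc20, Aurka and Fam83d were lower in T cells in all 6 sets, with Ube2c at 0.591, 0.471, 0.527, 0.519, 0.457 and 0.554 in T and 0.737, 0.798, 0.718, 0.619, 0.8 and 0.681 in hepatoma cells. Cdk1, Plk1, Kif20a, Ckap2, Sgo2a and Ect2 were also lower every time on this scale while their CPM ratio in set 1 was above 1, so their direction depends on the scale.

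**Figure D5:**
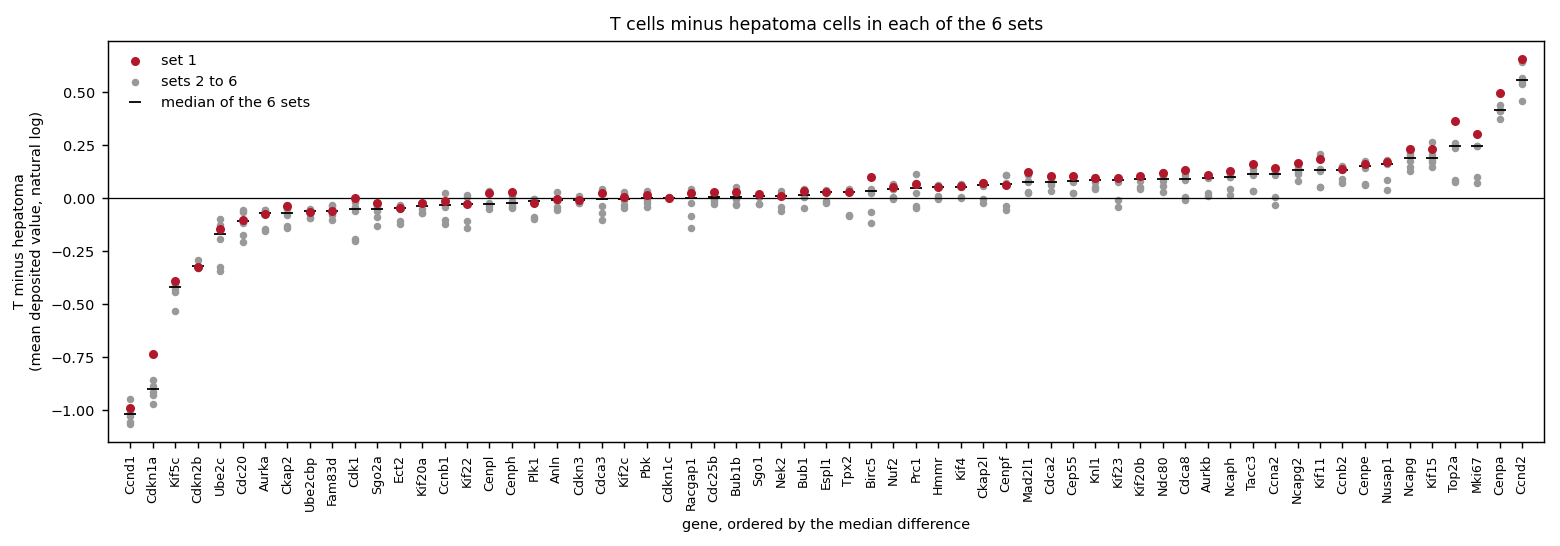
Mean deposited value (natural log) in T cells minus that in hepatoma cells for the 63 genes, ordered by the median, with a point for each of the 6 sets. The differences of Ccnd1 lie between -1.06 and -0.949, those of Ccnd2 between 0.46 and 0.656 and those of Cenpa between 0.372 and 0.496.

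Lower than hepatoma in all 6 sets were 49 of 63 genes in NK (57.4% of all genes), 58 in myeloid (50.5%) and 46 in fibroblast cells (43.8%). Higher in all 6 were 1 in NK (11.1%), 2 in myeloid (23.6%) and 2 in fibroblast cells (23.5%). The share of core-high cells by set was 30%, 30.1%, 32.4%, 16.7%, 34.1% and 27.97% in hepatoma and 36%, 21.2%, 30.4%, 20.9%, 24.9% and 27.98% in T cells. Hepatoma and T shares overlapped across the sets, and neither class was the higher one throughout. Myeloid shares were 2.02% to 10.1%, NK 1.25% to 10%, fibroblast 0.676% to 13% and neutrophil 0% to 13.7%, without a common depth.

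The core genes varied together from cell to cell. The correlation of a core gene with the mean of the other core genes was 0.492 to 0.786 across 6173 hepatoma cells, 0.419 to 0.774 across 1267 T cells and 0.157 to 0.615 across 845 myeloid cells. The core mean itself correlated with depth at 0.219, 0.472 and 0.291. Cdkn1a had a correlation of -0.296 with the core mean in hepatoma and 0.111 in T cells. Outside the 63 genes, those most like the core mean in hepatoma were Hmgb2 (0.774), a chromatin protein, then Incenp, Ncapd2, Smc4, Smc2, Knstrn, Kifc1, Tuba1b, Aspm and H2afz. In T cells they were Tuba1b (0.708), an alpha-tubulin, then Pclaf, Ncapd2, Hmgb2, Stmn1, Cks1b, Tubb4b, Smc2, Tubb5 and Fbxo5. In myeloid cells they were Stmn1 (0.488), a tubulin-binding protein, then Rrm1, Pclaf, Hmgb2, Incenp, Spc24, Pimreg, Ncapd2, H2afx and Lig1. All these cells are from set 1, and depth enters each value.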

How the data were processed

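Droplet single-cell RNA of Hepa1-6 tumours was deposited by the authors as 1 table of natural log values. Alignment used STAR 2.7.2b, UMI counting PISA and cell selection barcodeRanks of DropletUtils, per the labels' protocols. The protocol names GRCh38 and the submitters' processing notes also list mm10; 1984 of 2000 symbols and 63 of 63 members matched mouse gene names. All 53528 cell columns belong to no known sample. Cell names carry running numbers and no barcodes, so shared barcodes were not counted.

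In set 1 the deposited values are the natural log of 1 plus UMIs per 10000, and whole UMIs were recovered within 0.01 for 100% of its 9370 cells (1001 to 261833 UMIs per cell). In sets 2 to 6 every cell had values below 0, from a step not given in the sources used here, so only means and shares on the deposited scale were used there. Marker values were divided by their 99th percentile and averaged, and a cell joined the class with the highest score if that was at least 0.15 and 1.5 times the next. Scrublet (scanpy 1.11.5), set to an expected rate of 6%, called 91 cells, or 0.971%, which were left out of the UMI values. Whether uncalled doublets remain in the classes was not tested. Log2 ratios are of CPM plus 1, over all 2000 genes, with exact conditional Poisson intervals on the ratio; levels have exact Poisson and shares exact Clopper-Pearson intervals. Cells of 1 sample are not replicates, so no p-value was computed. The ratio and thinning steps were tested on simulated data.

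Full values were planned for the 3 members of each role list with the most UMIs, every D-type cyclin and CDK inhibitor, and members at least 2 times higher in another class than in hepatoma; Aurka, Plk1, Fam83d, Cdkn3, Ect2, Kif20a and Sgo2a were named after their values were seen. The members and lists were chosen with earlier results of these data known. Other gates, pseudocounts, denominators, depths and thresholds were tried.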

Additional observations from a re-analysis of the deposited data

Results flagged for a closer look

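The share of core-high hepatoma cells was 16.7% in set 4 and 27.97% to 34.1% in the other 5 sets, a gap of 0.645 of the whole range. Set 4 also had the lowest share of the 6 sets in T (20.9%), NK (1.25%), myeloid (2.02%) and fibroblast cells (0.676%). The low share was thus not particular to hepatoma cells. The sets are not a group of the study, and a gap of this kind turns up by chance in about 1 in 20 groups.

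Cdkn1a differed between core-high and other cells in opposite directions in hepatoma and T cells in all 6 sets, with median differences of -0.534 in hepatoma and 0.24 in T cells on the deposited natural log scale. The difference between the classes was not tested, and in the recovered UMIs of set 1 the T cell ratio of Cdkn1a was 0.913 (0.808 to 1.03).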

How the results depend on the processing

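No paired analysis was possible because the table is 1 sample and its sets carry no replicate number. Of the summary results under all alternatives, 109 values stayed within their limits and 46 moved; the cause was not tested. Of the T-to-hepatoma log2 ratios of single genes, 220 stayed within their counting limits, 166 moved beyond them and 1 turned. The median T-to-hepatoma log2 ratio of 0.84 in set 1 was above 0 under every alternative on CPM, at 1.09 with a gate score of 0.3, 0.67 with a pseudocount of 10, 0.64 as a mean over cells, 0.62 thinned, and, added after the data were seen, 1.14 in cells of 3000 to 10000 UMIs, 0.39 in CD4 cells (11 genes more than 2-fold higher) and 0.42 in core-positive cells (13 higher). On the mean deposited scale the median difference was -0.03 in sets 2 and 5 and above 0 in the other sets. Genes more than 2-fold lower in myeloid cells numbered 12 with a pseudocount of 10 and 38 over the UMIs of the table's genes. In myeloid cells of 3000 to 10000 UMIs they numbered 10, and the median was -0.37. In fibroblasts they numbered 14 and 39 under the first 2 of these. Shares and medians over all genes were not computed under these settings, so these counts cannot be set against a background. Core-positive shares, in the order hepatoma, T, NK, myeloid, fibroblast and neutrophil, were 57.2%, 74.1%, 47.1%, 54.3%, 38.7% and 66.7% thinned to 3000 UMIs, 93.6%, 72.3%, 48.8%, 54.7%, 70.1% and 41% unthinned and 54.3%, 63.7%, 43.9%, 50.8%, 40.3% and 46.1% with at least 1 core UMI. With at least 3 core UMIs they were 22.3% of hepatoma, 33.5% of T, 13.1% of myeloid, 14.3% of fibroblast and 9.4% of neutrophil cells. A gate margin of 3 gave 19% of myeloid and 10.6% of neutrophil cells. It also gave 10 genes higher in T cells in all 6 sets, where the main gate gave 21. The share of all genes under that margin was not computed, so the count of 10 cannot be set against a background. A gate score of 0.3 gave 26.2% of hepatoma cells and turned the Ube2c log2 ratio to 0.15. The median log2 ratio between core-positive and core-negative hepatoma cells was 2.66, and 2.79 with that score, 2.44 with at least 1 core UMI and 2.47 in cells of 3000 to 10000 UMIs. With at least 1 core UMI the Ccnd2 log2 ratio in myeloid cells turned from -0.65 to 0.11. Rank correlation kept 5 of the 10 genes most like the core mean in hepatoma.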
